A study of Arabidopsis thaliana with 36 samples.

Results

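The chloroplast of Arabidopsis thaliana carries its own small genome, and 88 of its genes are described here across 36 RNA-seq libraries of seedlings treated with flg22, a short flagellin peptide to which plants respond as they do to bacteria. The members are all rows of the count table whose locus identifier starts with ATCG and whose counts sum to at least 100 over the 36 libraries. This rule took 88 of 133 plastid rows, in a table of 32678 rows. The last members inside the threshold were psbN (ATCG00700, 115 counts), rps16 (ATCG00050, 199 counts) and a trnW (ATCG00610, 199 counts). The first rows outside it were a trnG (ATCG00310, 95 counts), ATCG00250 (73 counts) and one rps7 row (ATCG01240, 43 counts). The members held 4281810 counts, which is 99.99% of all plastid counts.

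The seedlings were Col-0 mutants wrky18, wrky40 and the wrky18 wrky40 double mutant, and Col-0 WT; the labels name no alleles. WRKY18 and WRKY40 are transcription factors induced in early immunity. Whole seedlings were grown for 12 days in MS medium (sucrose 0.5%, claforan 0.1%) under 16 h light and 8 h dark. Each genotype was sampled at 1 h and 2 h in fresh medium that held 1 µM flg22 and untreated at 0 h, and each of the 12 groups has 3 libraries. The labels describe no medium change for untreated seedlings, so flg22, fresh medium and the passing of time cannot be told apart. The labels give polyA RNA and a stranded TruSeq kit. The series design makes each replicate number a set of 12 samples, 1 of each genotype and time, and these are called sets 1, 2 and 3 below.

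Plastid genes encode part of each photosynthetic complex, the large subunit of Rubisco, part of the plastid ribosome and the core of a bacterial-type RNA polymerase, while the nucleus supplies the other subunits and the sigma factors that guide this polymerase to promoters. A second, phage-type polymerase is also made in the nucleus. Most plastid genes are read in long cotranscripts that are then cut. In plastids a tail added to the 3′ end marks an RNA for decay, unlike the stabilising tail of nuclear messengers, so a poly(A) library samples plastid RNA only in part.

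By counts, ribosomal proteins led, with 18 members and 34.68% of plastid counts. Photosystem II had 15 members and 17.88%, ATP synthase 6 and 10.61%, photosystem I with its assembly factors 7 and 6.737%, and the NDH complex, which returns electrons from the stroma to plastoquinone, 10 and 3.46%. The cytochrome b6f complex with the cytochrome c assembly gene ccsA had 7 members and 1.398%, the polymerase core 4 and 3.602%, and rbcL, the Rubisco large subunit, 6.897%. The 5 other protein genes (ycf1, accD, clpP, matK and cemA) held 13.81%, 11 tRNA genes 0.8451% and 4 ribosomal RNA rows 0.07498%. Single members with the most counts were ycf1 (ATCG01130, a subunit of the import channel in the inner envelope; 534782 counts), rpl16 (ATCG00790, ribosomal protein L16; 439714) and psbA (ATCG00020, the D1 protein of photosystem II; 366161). Per kilobase of gene, the order was another one. The median over the libraries was 840.3 CPM per kb for psbM (a small subunit of photosystem II), 834.7 for rpl14 and 748.2 for rpl32 (ribosomal proteins), against 442 for psbA, 259.1 for rbcL, 112.7 for ycf1 and 69.67 for psaB. CPM is the count in a library scaled to 1000000 counts. That measure is used for levels per kilobase and for the replicate sets. Values for WRKY18, WRKY40, RBCS1A and PYK10, and in the comparisons across conditions, are CPM after TMM scaling, explained below. The same library can therefore show different values in different sections.

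These levels do not rank the RNAs as they are in the cell: the 4 rows of ribosomal RNA, the most abundant plastid RNA, hold 248 to 1600 counts. Protein genes of the inverted repeat were also nearly empty and fall outside the threshold, with 1 and 4 counts for the rows of ycf2 and 5 and 3 for those of ndhB. The parts of poly(A) selection and of the handling of reads from repeated sequence were not tested. Rows of the inverted repeat, such as rrn16S (ATCG00920 and ATCG01210) and rrn23S (ATCG00950 and ATCG01180), share their sequence, and how their reads were divided is uncertain. Genes that overlap (psbD and psbC, atpB and atpE, ndhC and ndhK, matK inside trnK) or face each other on both strands (psbN) are uncertain in the same way, since the strand setting of the counting is not given in the sources used here.

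Library totals ran from 17287229 to 38709715 counts, with a median of 25704835, and plastid genes took 0.266% to 0.715% of them. WRKY40 averaged 37.2 ± 4.72 CPM in wrky40, 39.7 ± 4.95 CPM in the double mutant and 343 ± 18.5 CPM in WT at 2 h (SD, n = 3 each), and WRKY18 at 1 h averaged 28.5 ± 3.21 CPM in wrky18, 52.3 ± 2.95 CPM in the double mutant and 126 ± 10.3 CPM in WT. Leaf and root genes were both present. In untreated WT, RBCS1A, the Rubisco small subunit, averaged 14900 ± 928 CPM and PYK10, a root and hypocotyl glucosidase, 1940 ± 31.2 CPM. In bulk seedlings, fewer cells of a type and less RNA per cell cannot be told apart.

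The plastid genes separated the replicate sets more than any treatment or genotype, and the organelle shares of 2 libraries went against their set. In set 3 without WT at 1 h, the plastid share of counts was 0.317% at the lowest, 0.434% at the median and 0.559% at the highest. In set 2 it was 0.266%, 0.299% and 0.346%, and in set 1 without the double mutant at 1 h it was 0.500%, 0.624% and 0.715%. The WT 1 h library of replicate 3 had a plastid share of 0.695% and a mitochondrial share of 0.134%, where the other 11 libraries of set 3 had mitochondrial shares of 0.0131% to 0.0193% and those of set 1 of 0.0921% to 0.155%. The double mutant 1 h library of replicate 1 had 0.425% plastid and 0.0444% mitochondrial counts, below all other libraries of set 1 in both. Both are 1 h libraries and one is WT, so they enter many of the comparisons below, and the counts and main values of those are given with and without both libraries.

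psaB (ATCG00340, a core protein of photosystem I) shows the pattern of the sets. It had 8.557 CPM at the lowest, 11.98 CPM at the median and 17.13 CPM at the highest in set 3, against 149.5, 228.3 and 384.3 CPM in set 1, and set 2 lay near set 1 with 127.4, 165 and 225.9 CPM. Sets 3 and 1 did not overlap, while sets 2 and 1 did, and the ratio of medians of set 3 over set 1 was -4.25 on the log2 scale. The WT 1 h library of set 3 had 307.5 CPM, inside the range of set 1, and the double mutant 1 h library of set 1 had 69.72 CPM, below it.

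psbA had 32.58 to 46.07 CPM in set 3, with a median of 38.11, against 432.6 to 840.3 CPM in set 1, with a median of 610.6. That is 16.02-fold lower in set 3, again without overlap. rbcL (ATCG00490) had 23.15, 32.91 and 38.83 CPM in set 3 as lowest, median and highest, against 343.3, 497.8 and 772.7 CPM in set 1. accD (ATCG00500, a subunit of the plastid acetyl-CoA carboxylase, which starts fatty acid synthesis) had 0.3005, 0.5119 and 0.6418 CPM in set 3, against 3.872, 6.05 and 11.95 CPM in set 1. These 4 genes code for unrelated proteins and all stood far lower in set 3.

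Other members did not follow. ycf1 had 389.2, 878.9 and 1300 CPM in set 3, against 443.7, 694.2 and 891.8 CPM in set 1, and here it was set 2 that lay apart, with 93.75, 141.1 and 248.1 CPM. rpl16 had 545.6, 646.6 and 816.7 CPM in set 3, against 482.2, 564.6 and 629.3 CPM in set 1, and 158.3, 179.3 and 245 CPM in set 2. psbM (ATCG00220) had 21.29, 149.2 and 181.9 CPM in set 3, against 41.24, 91.52 and 130.7 CPM in set 1, and 8.825, 16.4 and 35.29 CPM in set 2. For these 3 genes sets 3 and 1 overlapped, and every library of set 2 was below every library of set 1.

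**Figure D1:**
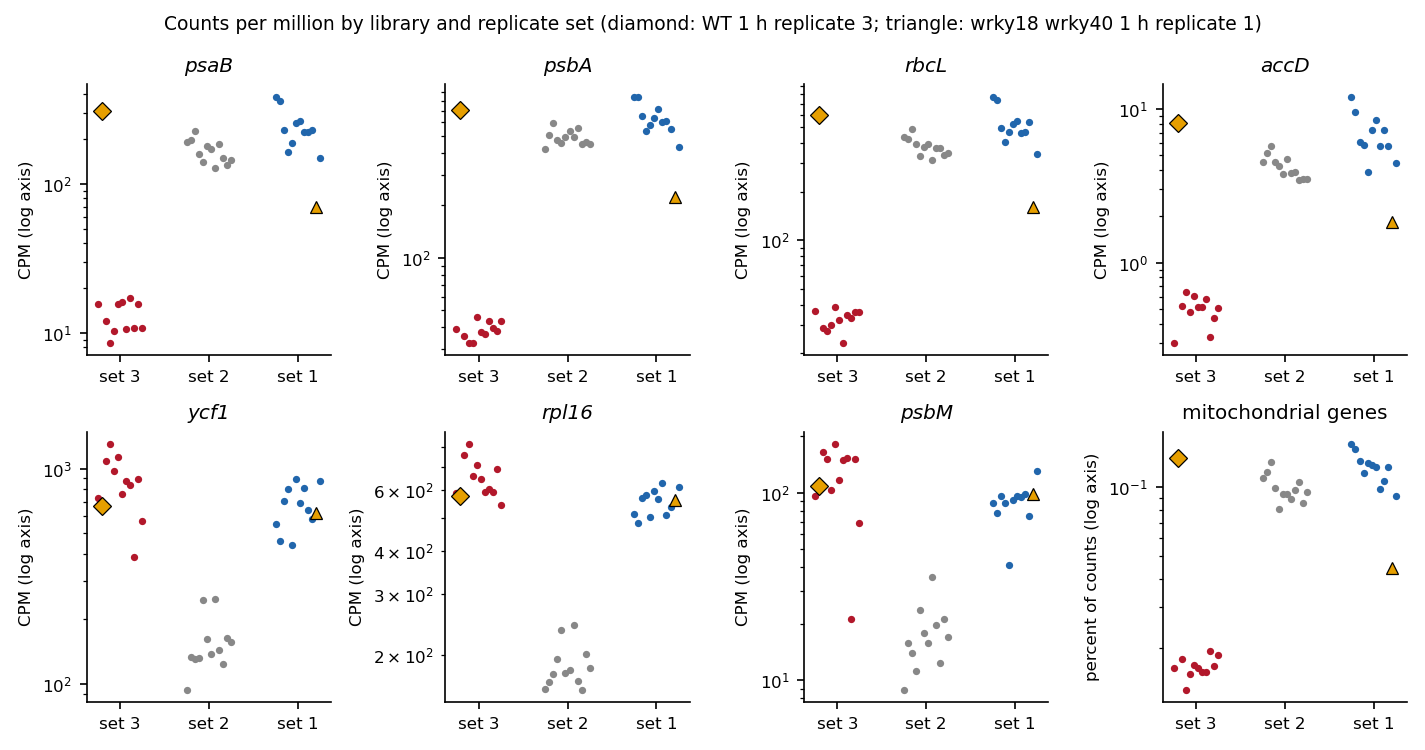
CPM on log axes for 7 members, and the mitochondrial share of counts in the last panel, in each library, by replicate set 3, 2 and 1; the diamond is WT 1 h replicate 3 and the triangle wrky18 wrky40 1 h replicate 1. psaB, psbA, rbcL and accD are low in set 3, ycf1, rpl16 and psbM are low in set 2, and the diamond lies with set 1 in the genes that are low in set 3.

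With both libraries left out, all set 3 libraries were below all set 1 libraries in 50 of 88 members, and none was the other way round. Among nuclear genes 0.0461% met this condition (10 of 21683). All set 2 libraries were below all set 1 libraries in 22 of 88 members, against 0.0138% of nuclear genes. These are descriptions of the sets: nothing in the labels says what differed between them, and no test was made. Both libraries were left out for organelle counts that went against their set. Leaving them out favours separation in plastid genes, so the nuclear shares are not an equal background. Counts with all 36 libraries are not given here. By role, the lower members in set 3 were 12 of 15 in photosystem II, 6 of 7 in photosystem I, 5 of 7 in cytochrome b6f and ccsA, 4 of 6 in ATP synthase, rbcL, 4 of 5 other proteins and all 4 ribosomal RNA rows. Among ribosomal proteins 5 of 18 met it, among NDH genes 3 of 10, among polymerase genes 2 of 4 and among tRNAs 4 of 11. In set 2, by contrast, 10 of 18 ribosomal protein genes were lower, 4 of 10 NDH genes and 3 of 15 photosystem II genes. The WT 1 h library of replicate 3 was above the range of set 3 in 64 members and within the range of set 1 in 80. That library was set aside for its organelle counts, so these counts restate that choice. Nuclear shares for them are not given here.

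Position on the genome went with the pattern. Between neighbouring protein genes on the same strand, the set 3 over set 1 ratios differed by a median of 0.384 on the log2 scale (55 pairs). Between neighbours on opposite strands the median was 1.72 (16 pairs), near the 1.45 of all 2556 pairs of protein genes. Neighbours on one strand often share a cotranscript and can share reads, so these pairs are not independent.

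**Figure D2:**
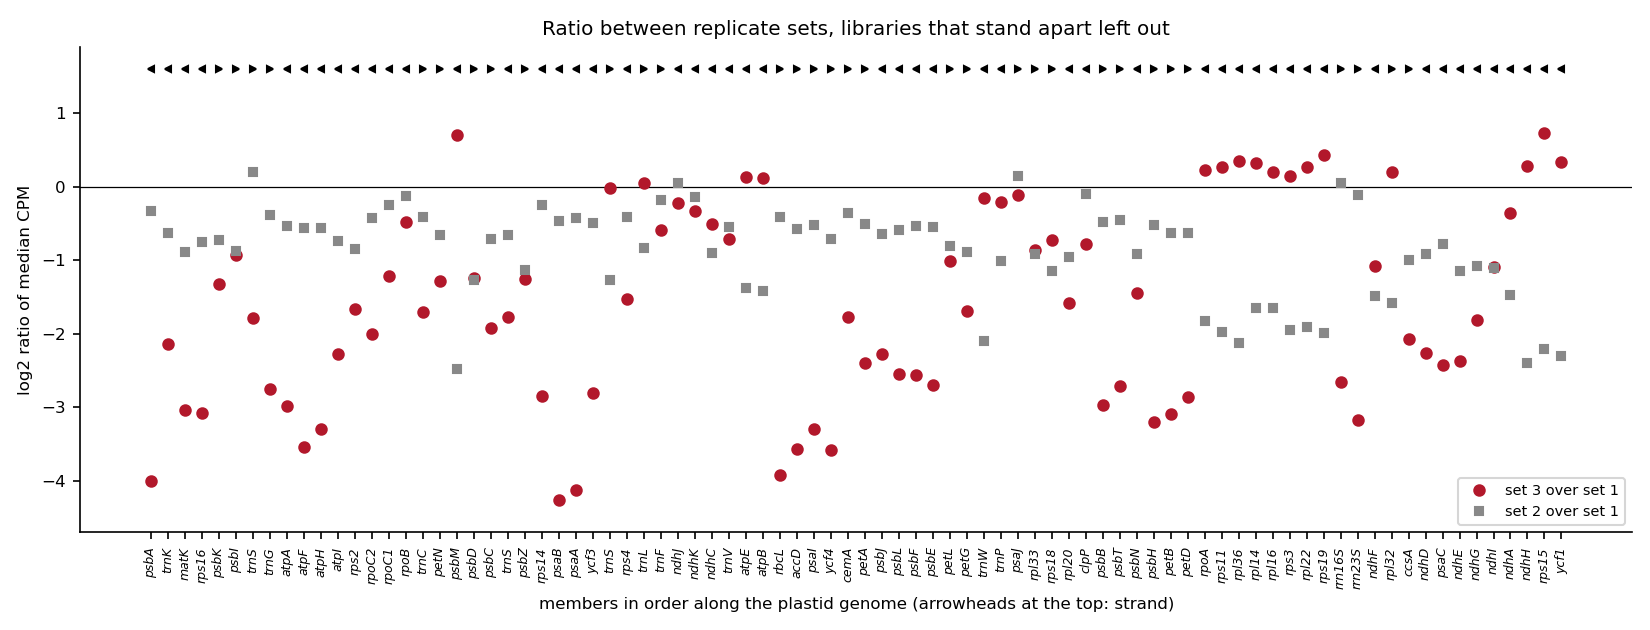
Log2 ratio of median CPM for most members, in their order along the plastid genome, set 3 over set 1 (circles) and set 2 over set 1 (squares), both libraries that stand apart left out; arrowheads give the strand. Runs of neighbours on one strand have similar ratios, and the deepest circles, such as psaB at -4.25, alternate with runs near 0.

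Base composition was compared next. As background, a run of A inside an RNA can be bound by oligo(dT) as a tail is; its part in these values was not tested. The longest runs of A on the coding strand are printed here for members that stand at different ends of the pattern, as windows of 40 bases of the RefSeq plastid genome in TAIR10.1, 5′ to 3′, with the run in capitals. They lie within the genes, at Pltd:125855-125894 (minus strand, ycf1), 78082-78121 (minus, rpoA, ATCG00740, the alpha subunit of the plastid polymerase), 123342-123381 (minus, rps15, ATCG01120, a ribosomal protein), 57358-57397 (plus, accD), 76721-76760 (plus, petD, ATCG00730, a cytochrome b6f subunit) and 39054-39093 (minus, psaB).
ycf1: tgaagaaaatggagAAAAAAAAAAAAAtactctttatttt
rpoA: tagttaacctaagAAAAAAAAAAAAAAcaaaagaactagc
rps15: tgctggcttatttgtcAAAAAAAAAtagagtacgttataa
accD: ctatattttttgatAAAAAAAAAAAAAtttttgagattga
petD: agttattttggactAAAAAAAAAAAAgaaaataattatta
psaB: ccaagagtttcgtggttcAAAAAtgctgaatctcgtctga

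The runs are 13, 14, 9, 13, 12 and 5 bases long in that order. accD has as long a run as ycf1 and stood far lower than ycf1 in set 3; these members were chosen after their values were seen. Across the 72 protein genes with a matched position on the plastid genome, the share of A correlated with the log2 ratio of set 3 over set 1 with Pearson's r = 0.471 and Spearman's rho = 0.476, and with that of set 2 over set 1 with r = -0.469 and rho = -0.357. For the longest run of A, r was 0.16 and rho 0.143 with set 3 over set 1, and -0.144 and -0.0744 with set 2 over set 1. These correlations are across genes, which share libraries, cotranscripts and base composition, and are given as a description.

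The first comparison across conditions asks what 1 h and 2 h of flg22 did to plastid RNAs, and the answer for most members hung on the scale. As a share of all counts, plastid RNA showed no detectable change: at 1 h against 0 h the mean log2 change over the 12 pairs of genotype and set was 0.043 (SD 0.35, 6 of 12 pairs higher, exact sign-flip permutation p = 0.686, two-sided), and at 2 h it was 0.04 (SD 0.166, 7 of 12 higher, p = 0.419). TMM is edgeR's trimmed mean of M values. Set against library totals scaled by TMM over all genes, plastid RNA was higher by 0.349 at 1 h (10 of 12 pairs, exact p = 0.00293). At 2 h it was higher by 0.355 (12 of 12 pairs, exact p = 0.000488, the smallest that 12 pairs allow). TMM factors were 0.897 to 0.972 at 1 h and 0.89 to 0.97 at 2 h, against 1.121 to 1.176 at 0 h. This scaling therefore moved every pair upwards. Under library totals the median gene of all 21356 tested moved by -0.334 at 1 h and -0.323 at 2 h on the log2 scale, where under TMM it moved by -0.028 and -0.007.

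Under TMM, edgeR's quasi-likelihood test with the set as a block and Benjamini-Hochberg adjustment over 21356 genes called 34 of 87 tested members higher at 1 h than at 0 h and none lower, with a median log2 change of 0.33. Over all genes, 38.5% were called higher and 41.6% lower, so the members' share of higher calls is near the background and the lack of lower calls is not. At 2 h against 0 h, 27 members were called higher and 2 lower, with a median of 0.26, against 43.2% of all genes higher and 43.7% lower. In both directions the members' share was below that of all genes. Scaled by library totals alone, 1 member was called higher and 2 lower at 1 h (median 0.02), against 24.7% and 61.9% of all genes, and 3 higher and 8 lower at 2 h (median -0.06), against 31.6% and 56.9%. Without both libraries that stand apart, the TMM fit called 39 members higher at 1 h, and 50 higher and 2 lower at 2 h. The shares of all genes in that fit are not given here, so these counts have no background beside them. Without the block of sets the TMM fit called 5 higher at 1 h and 6 at 2 h. Without the WT library of 0 h replicate 3, or that of 1 h replicate 3, 22 were called at 1 h, and without that of 1 h replicate 2, 52. At 2 h against 1 h, 1 member was called lower and none higher, where 36.9% of all genes were called higher and 38.1% lower; of the members, 0 had a higher value at an unadjusted p below 0.05, and DESeq2 made 4 calls.

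psbM, petL and ycf1 were called higher at 2 h under both scalings. psbM had 14.8, 101 and 191 CPM after TMM scaling at 2 h as lowest, median and highest of 12 libraries, against 7.7, 69.8 and 129 CPM at 0 h. The ranges overlap because the sets differ, but the 2 h library was higher in 12 of 12 pairs. The log2 change was 0.78 ± 0.18 (SE, adjusted p = 0.000221, edgeR) under TMM and 0.47 ± 0.19 (adjusted p = 0.0208) under library totals. ycf1 had 139, 731 and 1190 CPM at 2 h, against 81.9, 487 and 1120 CPM at 0 h, and was also higher in 12 of 12 pairs, by 0.58 ± 0.12 under TMM (adjusted p = 6e-05) and 0.26 ± 0.12 under library totals (adjusted p = 0.0498). petL (ATCG00590, a small subunit of cytochrome b6f) had 0.441, 0.807 and 1.76 CPM at 2 h, against 0.253, 0.477 and 0.975 CPM at 0 h. It was higher in 11 of 12 pairs, by 0.67 ± 0.17 under TMM (adjusted p = 0.000418) and 0.36 ± 0.17 under library totals (adjusted p = 0.0485). Without the block, psbM and ycf1 missed the threshold (adjusted p = 0.128 and 0.222), while petL kept it (adjusted p = 0.00777).

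Other large changes at 2 h under TMM were those of rpl32 (ATCG01020), with 0.57 ± 0.13 (adjusted p = 0.00016), and rps15, with 0.47 ± 0.13 (adjusted p = 0.00094). Under library totals neither passed the test, with 0.25 ± 0.13 and 0.15 ± 0.13. In the TMM fits on all libraries, without both libraries that stand apart and without each set in turn, 14 members were called higher at 1 h in all 5, and 20 at 2 h. Those at 2 h included genes of the ribosome, among them rpl14, rpl16, rpl22, rpl32, rpl36, rps3, rps15 and rps19. They also included the polymerase genes rpoA and rpoB, atpB and atpE of ATP synthase, ndhJ and ndhH, psbD and psbM, petL, the protease subunit clpP, and ycf1. Under library totals 17 of these 20 were not called. The share of all genes called in all 5 TMM fits was not computed, so the counts of 14 and 20 have no background beside them.

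The tRNA genes had no higher call under any of the 3 scalings at 2 h, as was also the case for the 4 ribosomal RNA rows and rbcL, and they were the group with the lowest median. Of 11 tRNA genes, 2 were called lower under TMM and none higher, with a median of -0.27. Under library totals 8 were called lower, with a median of -0.58, and scaled by the plastid total 8 were lower, with a median of -0.59. These 8 are all of the lower calls under library totals. trnL (ATCG00400), which holds 21934 of the 36190 tRNA counts, had 11.2, 20.5 and 27 CPM at 2 h, against 12.6, 26.1 and 40.7 CPM at 0 h, and was lower in 9 of 12 pairs. It fell by 0.30 ± 0.06 on the log2 scale under TMM (SE, adjusted p = 1.66e-05) and by 0.62 ± 0.06 under library totals (adjusted p = 4.49e-11). trnL was also the member called lower at 2 h against 1 h, at -0.34 ± 0.06 under TMM and -0.33 ± 0.06 without both libraries. The annotated trnL gene is 597 bases long and that of trnK 2631, and whether the counted RNAs are mature tRNAs was not tested. The other tRNA lower under TMM, a trnS (ATCG00370), had only 209 counts in all and changed by -0.72 ± 0.29 (adjusted p = 0.0202). Without the block neither trnL (adjusted p = 0.113) nor trnS (adjusted p = 0.0801) passed the test.

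**Figure D3:**
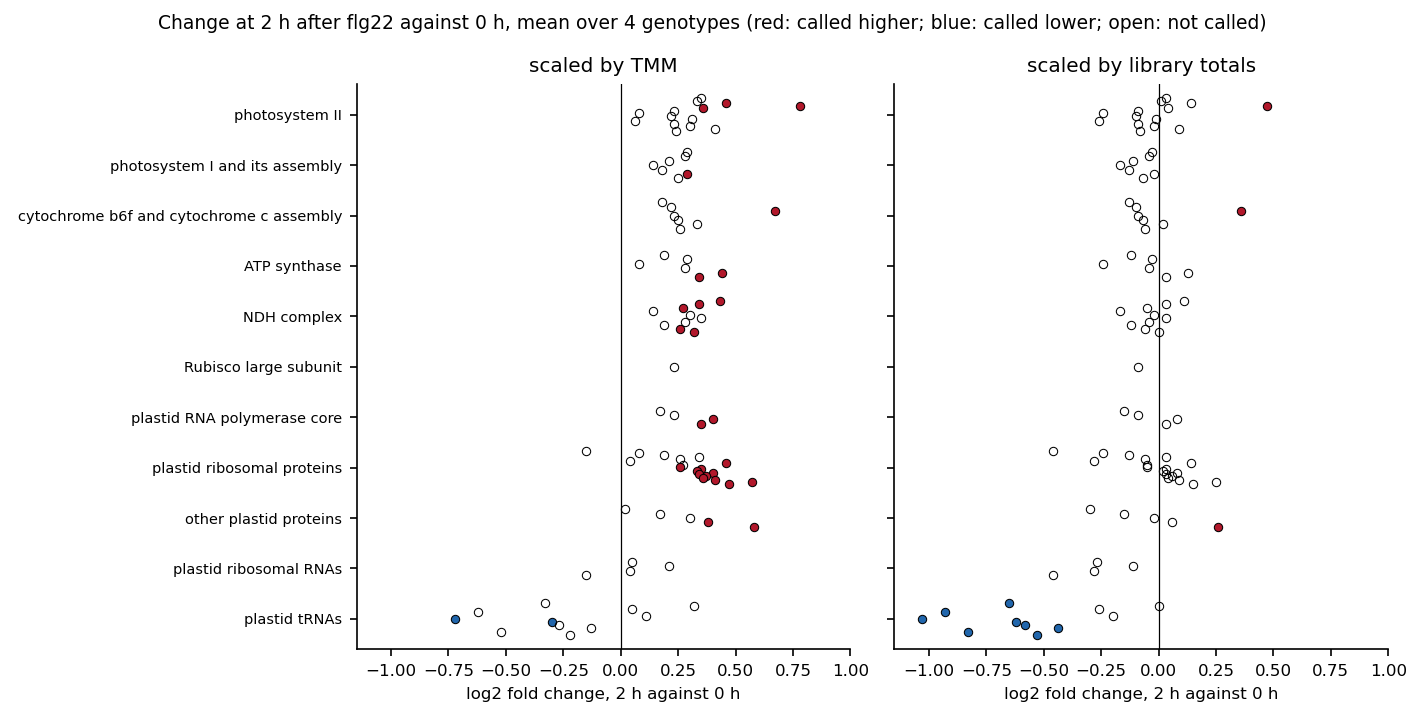
Log2 fold change of each member at 2 h of flg22 against 0 h, mean over 4 genotypes, by role; left under TMM, right under library totals; filled red points were called higher, filled blue points lower. The protein genes centre near 0.3 on the left and near 0 on the right, so their direction depends on the scaling, while the tRNAs lie lowest in both.

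Of the 5 members with the largest called rises at 1 h, psbA, psaB, psaA and rbcL are low in set 3, and their changes shrank when both libraries that stand apart were left out. The other, psbM, changed by 0.70 ± 0.19 with all libraries (adjusted p = 0.000997) and 0.70 ± 0.20 without both (adjusted p = 0.00259). psbA changed by 0.79 ± 0.26 with all libraries (adjusted p = 0.00631) and 0.31 ± 0.08 without both (adjusted p = 0.000852). psaB changed by 0.70 ± 0.28 (adjusted p = 0.0227) and 0.24 ± 0.09 (adjusted p = 0.0183), and rbcL by 0.65 ± 0.26 (adjusted p = 0.0227) and 0.20 ± 0.08 (adjusted p = 0.0273). rpl16, which sets 1 and 3 shared, barely moved, with 0.38 ± 0.06 and 0.36 ± 0.06. Under library totals none of these 4 was called.

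Within single genotypes this dependence was largest in WT. With all libraries, 53 of 87 members were called higher in WT at 1 h than at 0 h and none lower, against 31.4% of all genes called higher and 31.2% lower. After TMM scaling, psaB had 398, 201 and 325 CPM in WT at 1 h in sets 1, 2 and 3. WT at 0 h had 332, 168 and 13.2 CPM. The set 3 values carry the change: it was 2.63 ± 0.59 with all libraries (adjusted p = 0.000241) and 0.30 ± 0.18 without both (adjusted p = 0.163). Without both libraries 5 members were called higher in WT at 1 h, without the WT library of replicate 3 alone 3, without the block 1, and under library totals without both 0. Leaving out the WT 0 h library of replicate 2 gave 35 and that of replicate 3 gave 28. psbA, one of the 5, changed by 2.71 ± 0.55 with all libraries and by 0.43 ± 0.16 without both (adjusted p = 0.0255).

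At 1 h the other genotypes had fewer calls: 2 members were higher in wrky18, 11 were in wrky40 and 19 were in wrky18 wrky40, and none was lower, where 30.5%, 31.6% and 31.3% of all genes were called higher and 31.7%, 32.6% and 33.4% lower. Without both libraries the counts were 4, 13 and 26. In the double mutant at 1 h, psbM had 107, 23.6 and 161 CPM, against 64, 10.5 and 19 CPM at 0 h, a change of 1.46 ± 0.38 (adjusted p = 0.00116), and of 1.54 ± 0.43 without both (adjusted p = 0.00284). Most of its size came from set 3. At 2 h, wrky18 had 18 members called higher and 1 lower, wrky40 had 3 higher and 2 lower, wrky18 wrky40 had 20 higher and WT had 16 higher, where 37.8%, 38.2%, 37.3% and 37.8% of all genes were called higher and 37.1%, 36.6%, 36.7% and 35.8% lower. Without both libraries, those were 34 and 1, 1 and 3, 20, and 19. For the counts without both libraries, at 1 h and at 2 h, the shares of all genes are not given here. The members named in WT at 2 h were petL at 1.34 ± 0.33 (adjusted p = 0.00051) and ndhK (ATCG00430, an NDH subunit) at 0.87 ± 0.22 (adjusted p = 0.00068), which both stayed past the threshold under library totals (adjusted p = 0.00532 and 0.0153). Without the block, each genotype and time had 0 to 3 calls. Single libraries moved some of these counts: without the WT 2 h library of replicate 3, WT had 8 calls at 2 h, and without the 2 h library of replicate 1 the double mutant had 10 and wrky18 had 5. Without the wrky40 1 h library of replicate 2, wrky40 had 3 calls at 1 h.

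trnL differed by genotype in its values. At 2 h it had 25.5, 11.7 and 26.1 CPM in wrky18, against 40.7, 16.195 and 36.7 CPM at 0 h, and 17.7, 11.2 and 20.3 CPM in wrky40, against 24.8, 16.224 and 28.9 CPM at 0 h. In WT it had 26.8, 12.7 and 27 CPM at 2 h, against 25.4, 13 and 26.8 CPM at 0 h. In the double mutant it had 24.1, 13.7 and 20.7 CPM at 2 h, against 27.2, 12.6 and 28.6 CPM at 0 h. There trnL was not called lower. The fall was 0.55 ± 0.11 in wrky18 (adjusted p = 7.88e-05) and 0.51 ± 0.12 in wrky40 (adjusted p = 0.000311), but the difference of each from the WT change did not pass the test (-0.57 ± 0.16, adjusted p = 0.334 and -0.53 ± 0.16, adjusted p = 0.191).

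The second comparison sets the mutants against WT. Over the 3 times, the double mutant had a smaller plastid share of counts than WT in 9 of 9 pairs of set and time, by a mean of -0.346 on the log2 scale (SD 0.2, exact sign-flip permutation p = 0.00391, the smallest that 9 pairs allow, and 0.0196 adjusted over 5 share comparisons). Without both libraries that stand apart it was -0.278 (SD 0.168, 7 of 7 pairs, exact p = 0.0156, again the smallest possible). The double mutant libraries had 0.266%, 0.347% and 0.585% plastid counts as lowest, median and highest, against 0.29%, 0.512% and 0.715% in WT, and these ranges overlap because the sets differ. Without pairing by set, a permutation test gave p = 0.152. For wrky40 the mean was -0.144 (SD 0.235, 6 of 9 pairs lower, exact p = 0.0664) and for wrky18 -0.098 (SD 0.323, 5 of 9 lower, exact p = 0.387). The sign flips treat the 9 pairs as independent, though all come from only 3 sets. All 3 mutants are compared with the same WT libraries.

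**Figure D4:**
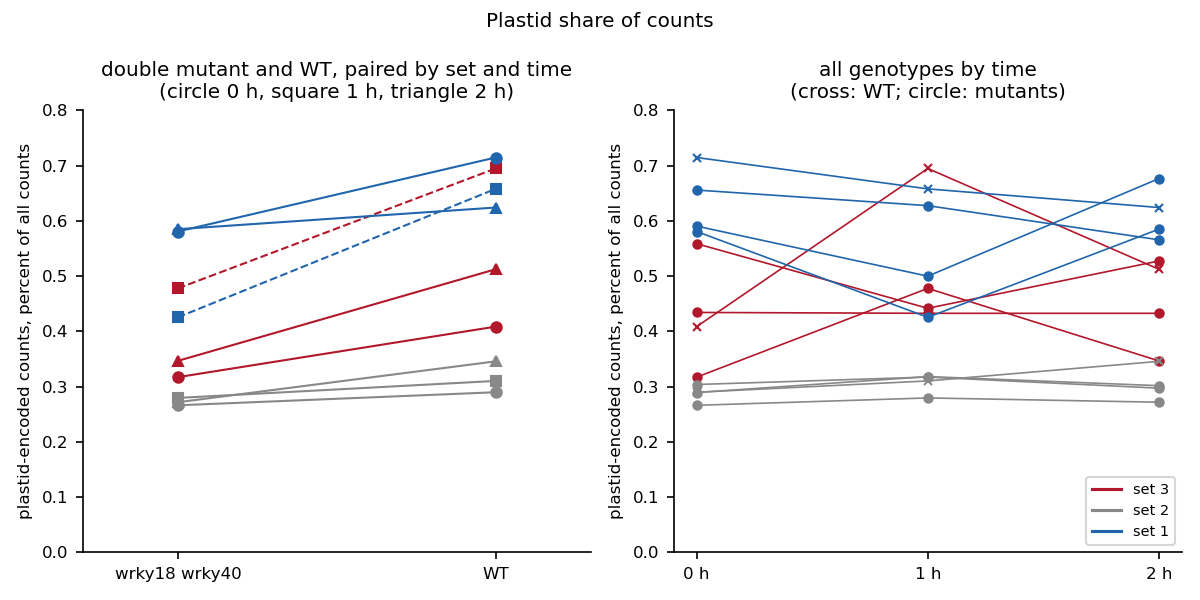
Plastid-encoded counts as percent of all counts; left, double mutant and WT libraries of the same set and time joined by lines (dashed where a library stands apart), right, all genotypes by time. The double mutant library lies below its WT partner in 9 of 9 pairs, and sets differ more than times or genotypes.

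Gene by gene, 54 of 87 members were called lower in the double mutant than in WT over the mean of times and none higher, where 11.3% of all genes were called lower and 12.4% higher. The median log2 difference of the members was -0.68, against -0.007 over all genes. Without both libraries 29 members were called lower and none higher, against 9.31% of all genes lower, and the members' median was -0.34. Library totals in place of TMM gave 56 lower with all libraries and 35 without both. Without the block of sets, 2 members were called lower.

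psaB, which had the most negative log2 difference, was lower in the double mutant in 9 of 9 pairs. It had 195, 127 and 9.6 CPM at 0 h in sets 1, 2 and 3 of the double mutant, against 332, 168 and 13.2 CPM in WT. At 1 h it had 75.7, 149 and 16.7 CPM, against 398, 201 and 325 CPM in WT, and at 2 h 165, 158 and 12 CPM, against 242, 240 and 12.4 CPM in WT. The log2 difference was -1.44 ± 0.32 with all libraries (SE, adjusted p = 0.0014) and -0.49 ± 0.11 without both (adjusted p = 0.00182). Within sets 1, 2 and 3, without both, it averaged -0.66, -0.48 and -0.24. The pairs with a library that stands apart account for the larger value, and the remaining 7 pairs have the same direction.

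atpA (ATCG00120, the alpha subunit of ATP synthase) was lower in 9 of 9 pairs, with 54.6, 33.4 and 6.82 CPM in the double mutant at 0 h, against 90, 47.5 and 7.04 CPM in WT. At 2 h it had 46.1, 44.3 and 6.51 CPM, against 72.7, 65.7 and 8.17 CPM in WT. The difference was -1.13 ± 0.24 with all libraries (adjusted p = 0.001) and -0.52 ± 0.09 without both (adjusted p = 0.000247). psbD (ATCG00270, the D2 protein of photosystem II) differed by -0.55 ± 0.11 and -0.32 ± 0.06 (adjusted p = 0.000291 and 0.00045). psbA, beside D2 in the same reaction centre, differed by -1.12 ± 0.30 with all libraries (adjusted p = 0.00616), but by -0.21 ± 0.09 without both (adjusted p = 0.129). rbcL differed by -1.17 ± 0.30 and -0.28 ± 0.10 (adjusted p = 0.00418 and 0.0495), and without both it averaged -0.51 and -0.30 in sets 1 and 2 but 0.19 in set 3.

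By role, the members called lower with all libraries, and then without both, were 11 and 7 of 14 in photosystem II, 5 and 5 of 7 in photosystem I, 5 and 3 of 7 in cytochrome b6f and ccsA, and 4 and 4 of 6 in ATP synthase. They were 7 and 1 of 10 in the NDH complex, 3 and 2 of 4 in the polymerase core, 5 and 3 of 18 in ribosomal proteins, 4 and 3 of 5 other proteins, 4 and 0 of 4 ribosomal RNA rows, and 5 and 0 of 11 tRNAs. In all 5 fits (all libraries, without both, and without each set) 21 were lower: psaA, psaB, psaC and the photosystem I assembly factors ycf3 and ycf4; psbB, psbC, psbD, psbH, psbJ and psbZ of photosystem II; atpA, atpF, atpH and atpI; rpoC1 and rpoC2; petA, rbcL, matK and rpl20. The share of all genes lower in all 5 fits was not computed, so the count of 21 has no background beside it. ycf1 and rpl16 were lower in only 2 of 9 pairs, with differences of 0.10 ± 0.14 and 0.09 ± 0.06 (adjusted p = 0.672 and 0.311).

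**Figure D5:**
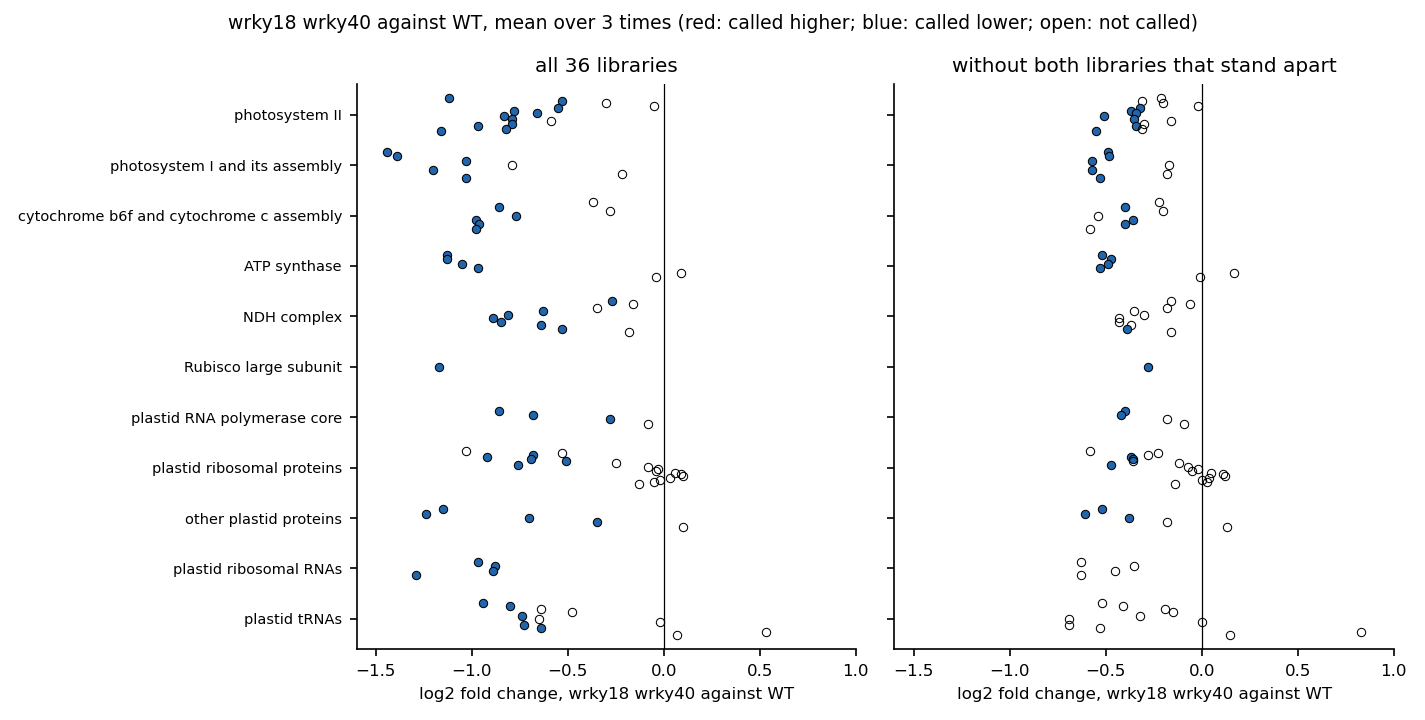
Log2 fold change of each member in wrky18 wrky40 against WT, mean over 3 times, by role, with all 36 libraries on the left and without both libraries that stand apart on the right; filled blue points were called lower. On the left 54 points are called lower, psaB lowest at -1.44; on the right 29 are, with psaB at -0.49.

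The members lower in the double mutant were largely those low in set 3. Of the 50 members whose set 3 libraries all lay below set 1, 45 were called lower in the double mutant, and 28 without both libraries, with a median of -0.40. Of the other 38, 37 were tested, 9 were called lower and 1 without both, with a median of -0.12. With all libraries, WT at 1 h of set 3 lay with set 1 in the genes low in set 3. The double mutant at 1 h of set 1 lay low. The counts of 45 and 9 are therefore not independent of the set pattern. Across 87 members the log2 difference between the double mutant and WT correlated with the set 3 over set 1 ratio with Pearson's r = 0.916 and Spearman's rho = 0.928 with all libraries, and with 0.631 and 0.663 without both; the members share libraries and the set pattern enters both measures, so this is a description. Without both, the 50 members had a median difference of -0.55 in set 1, -0.34 in set 2 and -0.17 in set 3, and the other 38 had 0.00, -0.11 and -0.30. Whether the property that separates the sets also lowered these genes in the double mutant was not tested.

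At single times, no member was called different in the double mutant at 0 h (edgeR; 7 lower at an unadjusted p below 0.05, DESeq2 0), where 0.997% of all genes were called lower and 2.55% higher. At 1 h, 49 were called lower, against 3.3% of all genes lower and 4.76% higher, and without both libraries 0 (7 at an unadjusted p below 0.05). At 2 h 1 was lower, against 8.06% of all genes lower and 9.28% higher, and 9 without both. For the counts without both libraries at single times, the shares of all genes are not given here. The 1 at 2 h was ndhC (ATCG00440, an NDH subunit), with 11.9, 5.55 and 8.66 CPM in the double mutant, against 20.4, 7.99 and 14.5 CPM in WT, a difference of -0.69 ± 0.23 (adjusted p = 0.0317) and -0.70 ± 0.20 without both (adjusted p = 0.0139). The same gene was lower in wrky40 at 2 h, with 11.3, 6.05 and 7.66 CPM and a difference of -0.74 ± 0.22 (adjusted p = 0.041). Neither call held without the block (adjusted p = 0.225 in the double mutant and 0.272 in wrky40), and the call in the double mutant was lost when any of 5 of the 6 libraries at 2 h was left out; without WT replicate 2, 2 members were called.

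In wrky40 over the mean of times, 10 members were called lower and none higher, against 2.58% of all genes lower and 5.88% higher, and 11 lower without both libraries, 1 without the block. The count rests on single libraries: it was 1 without WT at 0 h replicate 1, 2 without WT at 2 h replicate 2, 3 without WT at 1 h replicate 3, 29 without WT at 1 h replicate 1 and 31 without WT at 1 h replicate 2. They included psaA at -1.11 ± 0.31 with all libraries (adjusted p = 0.0213) and -0.38 ± 0.11 without both (adjusted p = 0.024), and rbcL at -1.06 ± 0.30 and -0.34 ± 0.09 (adjusted p = 0.0224 and 0.0233). In wrky18, psaB was called lower (-1.27 ± 0.32, adjusted p = 0.0433) and trnL higher (0.26 ± 0.07, adjusted p = 0.0477), against 0.323% of all genes lower and 0.754% higher. Without both libraries psaB differed by -0.50 ± 0.10 (adjusted p = 0.0112) and trnL by 0.27 ± 0.07 (adjusted p = 0.077); without both libraries 6 members were lower and none higher, and without the block none either way. These calls rest on single libraries: both were lost when any of 10 of the 18 libraries was left out, WT at 1 h replicate 3 among them, and 21 members were called without WT at 1 h replicate 2. At 1 h, 15 members were called lower in wrky18 and 20 in wrky40, against 0.37% and 1.25% of all genes lower and 0.258% and 2.25% higher. Without both libraries those were 0 and 1, and without the block 0 and 0, so most calls at 1 h were lost without these libraries. Without the WT library of replicate 3 alone, wrky18 and wrky40 had 0 calls at 1 h and the double mutant 16; without the double mutant library of replicate 1 alone, the double mutant had 21. Among other single libraries, leaving out wrky18 at 1 h replicate 2 or 3 gave 0 for wrky18, and leaving out wrky40 at 1 h replicate 2 or 3 gave 5 for wrky40. At 0 h no member was called in wrky18 or wrky40 (1 and 0 lower and 7 and 0 higher at an unadjusted p below 0.05, DESeq2 0), where 0.0187% and 0.0375% of all genes were lower and 0.00937% and 0.567% higher. At 2 h none was called in wrky18 and 2 were lower in wrky40, against 0.0796% and 2.37% of all genes lower and 0.131% and 4.37% higher. The shares of all genes without both libraries, without the block or without single libraries are not given here for wrky18 and wrky40.

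The third comparison, whether a mutant's change after flg22 differs from that of WT, gave no member call in any of 6 contrasts by edgeR. In the double mutant 0.829% of all genes were called lower and 0.52% higher at 1 h, and 1.57% and 1.27% at 2 h; in wrky40 0.0375% and 0.089% at 1 h, and 0.0796% and 0.304% at 2 h; in wrky18 0% at both. At 1 h the change was more negative than in WT at an unadjusted p below 0.05 for 23 members (wrky18), 21 members (wrky40) and 35 members (wrky18 wrky40), and 0 in each without both libraries. At 2 h those counts were 4, 4 and 0. DESeq2 made 3 calls in the double mutant at 1 h and none in the other contrasts. For psaB in the double mutant at 1 h, the difference of changes was -2.74 ± 0.79 with all libraries (adjusted p = 0.0836) and 0.13 ± 0.27 without both (adjusted p = 0.952).

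The nuclear genes that serve plastid expression were lower at 2 h. These lists, like the roles above, were written with results of these data known. At 2 h against 0 h, where 43.7% of all genes were called lower, 8 of 8 sigma factors and phage-type polymerases were called lower, with a median of -1.8: SIG4 fell by 3.66 ± 0.07 on the log2 scale, SIG1 by 2.5 ± 0.06 and SIG5 by 1.91 ± 0.05 (SE, edgeR, adjusted p = 3.93e-30 for SIG4). Of proteins bound to the plastid polymerase, 12 of 12 were lower, with a median of -0.55, among them PTAC2 at -1.89 ± 0.05. Of RNA processing factors, 11 of 11 were lower, with a median of -0.87, among them the endoribonuclease RNEE/G at -1.99 ± 0.05 and HCF152, which processes the psbB cotranscript, at -1.97 ± 0.06. Nuclear partner subunits of the plastid-encoded complexes were lower in 11 of 11, with a median of -0.51, among them ATPD of ATP synthase at -1.51 ± 0.04 and PSAD1 of photosystem I at -1.0 ± 0.04. Under library totals the same 8, 12, 11 and 11 genes were lower, with medians of -2.11, -0.87, -1.18 and -0.82. At 1 h under TMM, where 41.6% of all genes were lower, 8 of 8, 10 of 12, 10 of 11 and 5 of 11 were lower, with medians of -0.89, -0.24, -0.28 and -0.09, and 2 partner subunits were higher.

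In the double mutant over the mean of times, where 11.3% of all genes were called lower, 2 of 8 sigma factors and polymerases were lower, SIG5 at -0.31 ± 0.06 (adjusted p = 0.000274) and SIG3 at -0.16 ± 0.06 (adjusted p = 0.0436). Of polymerase-bound proteins 5 of 12 were lower, among them PTAC2 at -0.32 ± 0.06, and of RNA processing factors 3 of 11. Without both libraries that stand apart these counts were 1, 4 and 2; SIG5 and PTAC2 were at -0.31 ± 0.07 and -0.36 ± 0.07, and SIG3 missed the threshold (adjusted p = 0.0737). None of the 11 partner subunits was called: PSAD1 differed by -0.04 ± 0.05 and ATPC1 by 0.01 ± 0.04, beside -1.44 to -0.49 for psaB. Of 7 root markers none was called in the double mutant, and at 2 h against 0 h 3 were higher and 4 lower, from -4.27 for TIP2;3 to 1.15 for NRT2.1; all 7 were detected. Whether a shift between leaf and root RNA takes part in the plastid values was not tested.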

How the data were processed

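Per the labels, polyA RNA of whole seedlings was sequenced in 36 samples with a stranded TruSeq kit. Per the submitters' processing notes, FastQC 0.11.2, TopHat2 2.0.10, HTSeq and the TAIR10 build were used; the authors deposited raw read counts per gene, summing to 17287229 to 38709715 per library. HTSeq's treatment of strand and of reads that match several places is not given in the sources used here. The columns were matched to samples by name, and all 36 were used.

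Counts were tested with edgeR 4.0.16 (R 4.3.3, limma 3.58.1): filterByExpr, TMM factors and a quasi-likelihood fit of the 12 groups with the replicate set as a block on 21356 genes, with 22 residual degrees of freedom and a biological coefficient of variation of 8.5%. A call is a Benjamini-Hochberg adjusted p below 0.05 over all genes, and psbN did not pass the filter. DESeq2 1.42.0, other scalings, no filter, no block and left-out libraries were alternatives. Shares were compared within pairs of the same set by exact sign-flip tests (Python 3.11.15, scipy 1.17.1). On simulated counts for 2 h against 0 h, the fit called 99% of genes raised and 100% of genes lowered 2-fold, and 8 of the unchanged genes, in a simulation of 21091 genes.

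The series design makes a replicate number a set of 12 samples, which is where the pairing comes from. In nuclear genes 34 of 36 libraries were closest to their own set, and the median correlation of same-numbered deviations was 0.181. The exceptions were wrky40 and the double mutant at 1 h, both of replicate 1 and closest to set 3. WT at 1 h replicate 3 was closest to its own set in nuclear genes, with a mean correlation of 0.165, against 0.00846 with set 1. The design calls the replicates biological but does not say whether they were separate cultures, so p-values measure the spread between these samples, which may be technical.

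Gene symbols follow the usual names of the plastid loci, written by hand: 104 of 108 named rows carry a symbol that RefSeq lists on the 154478-base plastid genome, and the 79 that occur once are all in RefSeq's order. Sequences are those of RefSeq in TAIR10.1. Changes within sets add 0.5 CPM before log2, and the unpaired permutation test drew 100000 resamples. Members and lists were chosen with earlier results of these data known. Named in each comparison are the 5 largest rises and falls among called members, or every called member where fewer than 10 were called; in each role, the member with the most counts and the one with the smallest adjusted p at 2 h against 0 h; the 5 members with the most counts; and those just above and below 100 counts. Of each nuclear list up to 4 genes with the smallest adjusted p are named. Some members of these sets are given only as counts, and 1 member is not reported here by name. Members that show the pattern of the sets, those called in all fits and those whose A runs are printed were chosen after their values were seen.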

Additional observations from a re-analysis of the deposited data

Results flagged for a closer look

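At 2 h against 0 h, the plastid share of counts moved in opposite directions in wrky40 and in the double mutant: every wrky40 library was lower than the 0 h library of its set and every double mutant library was higher. The mean log2 change in wrky40 minus that in the double mutant was -0.14. The difference was not tested. The opposite directions hold for library totals alone: against totals scaled by TMM, the 2 h library was higher in 12 of 12 pairs, wrky40 included. Some steps were small. The share went from 0.434% to 0.433% in wrky40 in set 3, and from 0.581% to 0.585% in the double mutant in set 1.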

How the results depend on the processing

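The counts below are of members called in either direction by the adjusted p of edgeR's quasi-likelihood test with sets as blocks, unless another fit is named. Where no share of all genes is given above, these counts have no background beside them. The alternatives that leave out both libraries that stand apart, or scale by library totals alone, were chosen after seeing the data. Scaling by nuclear genes alone kept all 29 counts within 1.5 times.

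Time, mean of genotypes. The counts of 34 at 1 h against 0 h, 29 at 2 h against 0 h and 1 at 2 h against 1 h became 5, 6 and 0 with no replicate block. They became 9, 15 and 10 scaled by the plastid total, 3 and 11 scaled by library totals (1 h and 2 h against 0 h), and 5, 13 and 2 scaled by library totals without both libraries that stand apart. Without both libraries under TMM, 2 h against 0 h had 52 and 2 h against 1 h had 2. At 2 h against 1 h DESeq2 gave 4 and RLE size factors 2. Leaving out each set, or single libraries, in turn gave 17 to 69, 24 to 33 and 1 to 11.

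Time within genotypes. With no replicate block, the counts were 0 for wrky18 at 1 h and 2 at 2 h, 1 and 1 for wrky40, 3 and 3 for the double mutant, and 1 and 2 for WT. Scaled by library totals they were 2 for wrky18 at 2 h, 1 and 3 for wrky40 at 1 h and 2 h, 5 and 3 for the double mutant, and 27 and 8 for WT; without both libraries as well they were 5 for wrky18 at 2 h, 4 for wrky40 at 1 h, 5 and 6 for the double mutant, and 0 and 9 for WT. Without both libraries under TMM, WT at 1 h had 5 and wrky18 4 and 35. RLE size factors gave 3 for wrky40 at 2 h. Leaving out each set or 1 library gave 1 to 7 and 5 to 29 for wrky18, 0 to 14 and 1 to 4 for wrky40, 14 to 29 and 10 to 23 for the double mutant, and 2 to 61 and 8 to 23 for WT.

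Mutants against WT, mean of times. With no replicate block, wrky18, wrky40 and the double mutant had 0, 1 and 2. Without both libraries wrky18 had 6 and the double mutant 29, and with library totals as well 6 and 35. DESeq2 gave 4 for wrky18 and 16 for wrky40, and RLE size factors 1 for wrky18. Leaving out each set or 1 library gave 0 to 21, 0 to 31 and 27 to 57.

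Mutants against WT at single times. With no replicate block, 1 h had 0 for each mutant, and 2 h had 0 for wrky40 and 0 for the double mutant. Without both libraries the 1 h counts were 0, 1 and 0 for wrky18, wrky40 and the double mutant, the double mutant had 1 at 0 h and 9 at 2 h, and wrky40 had 4 at 2 h. With library totals as well the 1 h counts were 0, 2 and 0, the double mutant had 1 at 0 h and 19 at 2 h, and wrky40 had 4 at 2 h. Library totals with all libraries gave 2 for the double mutant at 2 h. DESeq2 gave 29 for wrky18 and 33 for wrky40 at 1 h. Leaving out each set or 1 library gave 0 to 32, 0 to 37 and 16 to 53 at 1 h, 0 to 1 for wrky18 at 0 h, and 0 to 4 for wrky40 and 0 to 2 for the double mutant at 2 h. In the other contrasts at 0 h and 2 h it gave 0 to 0.

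Differences of response. For the double mutant at 1 h, DESeq2 and the fit with no filter on low counts each gave 3, library totals 2 and leaving out a set or 1 library 0 to 14; for wrky40 at 1 h leaving out 1 library gave 0 to 4. The other 4 contrasts had 0 to 0.

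Plastid share. Against library totals scaled by TMM over all genes, the change was 0.349 at 1 h and 0.355 at 2 h, both past the threshold. Without ycf1 the wrky40 difference was -0.185 (exact permutation p = 0.0312). With no replicate block the double mutant difference of -0.346 missed the threshold (permutation p = 0.152). Leaving out each set gave -0.063 to 0.173 at 1 h, with the reversed sign without set 3, 0.014 to 0.085 at 2 h, -0.12 to -0.054 for wrky18 (-0.028 without both libraries), -0.196 to -0.075 for wrky40 and -0.415 to -0.274 for the double mutant.

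Single members. For the 25 values of members called in the contrasts over means, 815 alternatives were computed: 664 kept direction and call, 148 kept the direction and missed the threshold, and 3 changed sign. Those 3 are 1 h against 0 h scaled by library totals without both libraries, for psaB (-0.06), psaA (-0.08) and rbcL (-0.09). The causes of these shifts were not tested beyond what each alternative leaves out or rescales. Depth limits psbN, trnS (ATCG00370), trnW and rps16, which have under 210 counts over all libraries.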
